A study of Rattus norvegicus with 56 samples.

Results

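The dorsal striatum of rats with a nigral lesion was compared with that of sham-operated rats, all of which had been given both L-dopa and pramipexole. The members are the 7 arrays labelled Lesion L-dopa ppx (rats 1 to 7) and the 7 labelled Sham L-dopa ppx (rats 29 to 35), 14 of the 56 arrays of the study. The animals were male rats of strain Crl:OFA (Sprague Dawley), and age was not analysed here. In the lesioned rats a bilateral loss of nigral neurons had been induced by overexpression of a protein from an AAV vector. The sham rats had received the same kind of vector expressing GFP, so both groups carried a viral injection. From 5 weeks after surgery both groups received L-dopa methyl ester at 50 mg/kg with benserazide, which keeps L-dopa from being converted outside the brain, daily for 3 weeks. Both groups were then conditioned with pramipexole (ppx), an agonist of D2 and D3 dopamine receptors, at 2 mg/kg in sessions of 40 min, in a test of place preference. Tissue was taken 24 or 48 h after the final pramipexole or saline injection. The rats were extracted separately, with 1 Affymetrix Rat230_2 array per rat. The comparison therefore asks what a nigral lesion leaves behind in striatal transcripts when lesioned and sham animals have had the same drugs. It is also the one lesion comparison of 7 against 7 rats in which all arrays are numbered 1 to 37. That matters because signals of some probe sets step between arrays 1 to 37 and 38 to 56. Within arrays 1 to 37 the lesioned rats (1 to 7) and sham rats (29 to 35) are still separate runs of numbers. Lesion and array number therefore cannot be told apart here either. The vector's promoter and the extent of nigral loss were not analysed here.

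Dopamine neurons of the substantia nigra send their axons to the dorsal striatum, where nearly all neurons are medium spiny neurons. One class carries D1 receptors and the peptides dynorphin and substance P, and the other carries D2 receptors, the adenosine receptor encoded by Adora2a and enkephalin. In the textbook account, loss of dopamine raises enkephalin and D2 receptor transcripts and lowers those of substance P and dynorphin, and L-dopa brings dynorphin back up. Resident microglia and astrocytes respond to degenerating axons and to viral vectors.

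Values are MAS5 signals on the log2 scale, so a difference of 1 is a doubling, and levels of different probe sets are not comparable with each other. Of 31042 probe sets other than controls, 18599 had a mean above 5 over the 14 arrays and were tested. They carry 10156 gene symbols. Median signals of the arrays lay between 5.65 and 5.81. The gap between 3′ and 5′ probe sets of rat housekeeping controls, which measures RNA quality on the log2 scale, averaged 0.883 ± 0.0725 in lesioned and 0.841 ± 0.138 in sham rats (SD, n = 7 each). It differed by 0.0415 (two-sided exact permutation test over 3432 splits, p = 0.491). The labelled tissue was borne out by medium spiny neuron transcripts, which were bright on every array. Penk ranged from 12.00 to 12.47 in lesioned rats and from 12.02 to 12.32 in sham rats. Drd1 ranged from 10.53 to 11.15 in lesioned rats and from 10.47 to 10.87 in sham rats. In tissue RNA, fewer cells of a type and less RNA per cell cannot be told apart.

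Some rats stood apart. Lesioned rat 2 had a median correlation with the other 13 arrays of 0.963, sham rat 29 of 0.976 and lesioned rat 3 of 0.977, against 0.981 to 0.984 for the remaining rats. In rat 2, 208 probe sets lay above all 13 other rats by more than 1 on the log2 scale, whereas no other rat had more than 3. Of the 208, 18 passed the filter on low signals only through rat 2, since the mean of the other 13 rats was not above 5, and 190 passed without it. In rat 3, 22 probe sets lay below all others by more than 1, among them the interneuron and cortical transcripts Pvalb, Vip, Neurod1 and Cux2. In rat 7 the 3 that lay above all others were Ttr, Folr1 and Igfbp2, of which Ttr and Folr1 are choroid plexus markers. These genes of rats 3 and 7 were picked after their values were seen. Leading results are therefore given with and without rat 2, and a plot sets both against each other for all probe sets, and rats 3, 7 and 29 are named beside values they move.

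No probe set passed limma's test at a Benjamini-Hochberg adjusted p under 0.05, and the smallest adjusted p was 0.305. At unadjusted p under 0.05 there were 985 probe sets (5.3% of those tested), 515 higher (2.77%) and 470 lower (2.53%) in lesioned rats. Without rat 2 limma again called 0, with a smallest adjusted p of 0.187, and 852 (4.58%) had unadjusted p under 0.05, 473 higher (2.54%) and 379 lower (2.04%). Of the probe sets at that level, 660 were the same with and without rat 2. Sham rat 29 moved the number at unadjusted p under 0.05 most. Without rat 29 it was 1550, with 0 called and a smallest adjusted p of 0.127. Leaving out any other single rat gave between 851 (sham rat 31) and 1164 (lesioned rat 1). Without rats 2, 3, 7 and 29, chosen after seeing the data, it was 1386, with 0 called. With all rats the median size of the lesion difference was 0.0663, against a median SE of 0.0915. A size above 0.5 was reached by 86 probe sets and a size above 1 by 6, against 63 and 4 without rat 2. Groups of 7 did not overlap for 22 probe sets (0.118%), with lesioned rats above in 12 (0.0645%) and below in 10 (0.0538%). Without rat 2, lesioned rats lay above in 17 (0.0914%) and below in 11 (0.0591%).

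Ing4, which encodes a reader of methylated histone H3 in an acetyltransferase complex, had the smallest p of all named genes. Its signals in lesioned rats had a lowest value of 6.92, a median of 7.04 and a highest of 7.35, against 6.44, 6.70 and 6.77 in sham rats. Every lesioned rat lay above every sham rat, with a gap of 0.157 between the groups. The difference was 0.45 ± 0.08 (SE), a fold of 1.36, with limma's unadjusted p = 3.3e-05 and adjusted p = 0.305. Without rat 2 it was 0.46 ± 0.08. In the fit that estimates the spread from all arrays numbered 1 to 37, Ing4 was the single call (adjusted p = 0.0235). With the spread from all 56 arrays limma called 0 probe sets, with a smallest adjusted p of 0.393. Over 27 alternative runs of limma the adjusted p of Ing4 ran from 0.0235 to 0.951.

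Klf2, a Krüppel-like transcription factor gene best known from blood-flow responses of endothelial cells, had 6.45, 6.66 and 7.24 in lesioned rats and 5.82, 6.22 and 6.38 in sham rats. The groups did not overlap, and rat 3 was the highest and rat 2 the lowest of the lesioned rats. The difference was 0.62 ± 0.12 (fold 1.53, unadjusted p of limma 0.000135), and 0.67 ± 0.12 without rat 2. Suco, whose product is an endoplasmic reticulum protein first described in bone formation, had 4.99, 5.25 and 5.67 in lesioned rats, against 4.65, 4.87 and 4.98 in sham rats. Its difference was 0.43 ± 0.09, and without rat 2, the highest animal, 0.36 ± 0.07. Add1, which encodes the adducin subunit that caps actin filaments at the membrane skeleton, differed by 0.28 ± 0.06 with a gap of 0.0451 between the groups.

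The other genes among the 12 of smallest p with higher signals were a mixed group. Ddx18 (0.36 ± 0.08) encodes an RNA helicase and Gtpbp4 (0.45 ± 0.10) a GTPase, both of the nucleolus. Slc2a8 (0.43 ± 0.10) encodes a glucose transporter and Slc3a1 (0.48 ± 0.12) the heavy chain of a cystine transporter. Scarb2 (0.35 ± 0.09) encodes the lysosomal membrane protein that carries glucocerebrosidase to the lysosome. Tnnt1 (0.50 ± 0.12), a troponin gene of slow muscle, Riox2 (0.55 ± 0.14), a ribosomal oxygenase gene, and Gse1 (0.29 ± 0.07) made up the rest. For Tnnt1 and Gtpbp4, 6 of 7 lesioned rats lay above the sham mean, and for the other 10 all 7 did. The 1 other probe set of Gtpbp4 had the opposite sign with unadjusted p under 0.05, and the 1 other of Gse1 had the opposite sign too. Without rat 2 the differences of the 12 ran from 0.29 (Add1) to 0.67 (Klf2).

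Among genes with lower signals in lesioned rats, Pnpla8, which encodes a calcium-independent phospholipase A2 of mitochondria and peroxisomes, had the smallest p. It had 8.93, 9.01 and 9.08 in lesioned rats, against 9.11, 9.25 and 9.27 in sham rats. No lesioned rat reached the lowest sham rat, with a gap of 0.0358. The difference was -0.20 ± 0.05 (limma's unadjusted p = 0.000715), and -0.19 ± 0.05 without rat 2. Of its 2 other probe sets, 1 had the opposite sign.

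Among the 12 genes of smallest p in this direction, the widest difference was that of Cxcr5, the receptor gene for the B-cell chemokine CXCL13. Cxcr5 had 5.16, 5.90 and 6.70 in lesioned rats, against 6.32, 6.59 and 6.74 in sham rats. Rat 4, at 6.70, lay inside the sham range and the other lesioned rats lay below the lowest sham rat. The difference was -0.66 ± 0.18 with all rats and -0.62 ± 0.19 without rat 2. Gda, the guanine deaminase gene, had 9.70, 9.94 and 10.29 in lesioned rats and 10.11, 10.37 and 10.46 in sham rats. Sham rat 29, at 10.11, was the 1 sham rat inside the lesioned range, and the difference was -0.35 ± 0.10. Rat 2 was the lowest of the lesioned rats for Gda, and without it the difference was -0.30 ± 0.09.

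The remaining genes of this direction had differences between -0.39 and -0.21. Gpbp1 (-0.39 ± 0.10), a transcription factor gene, and Orc3 (-0.23 ± 0.06), a subunit of the origin recognition complex, had no overlap between the groups. Mmut (-0.26 ± 0.07) and Lipt2 (-0.28 ± 0.07) encode a mitochondrial mutase and a lipoyl transferase. Cops2 (-0.25 ± 0.07) belongs to the COP9 signalosome, Cpsf6 (-0.21 ± 0.06) to the machinery that cleaves messenger RNA at its 3′ end, and Lig4 (-0.22 ± 0.06) to DNA end joining. Asap1 (-0.23 ± 0.06), an activator of Arf GTPase turnover, and Cdadc1 (-0.25 ± 0.07) completed the 12. For Cdadc1, all 3 other probe sets had the opposite sign, for Asap1 2 of 3, and for Orc3 and Gda the 1 other. Without rat 2 the differences of the 12 ran from -0.62 (Cxcr5) to -0.18 (Lig4).

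**Figure D1:**
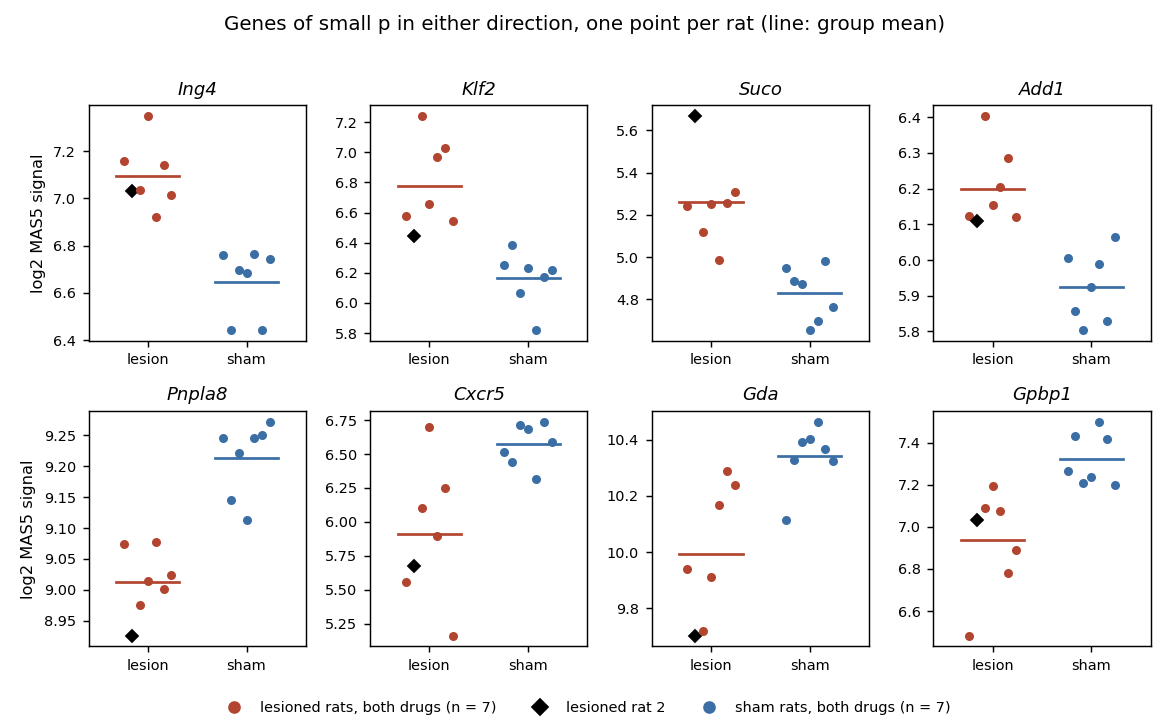
Signals of 8 genes of small p in the 7 lesioned (left) and 7 sham rats (right) given both drugs, on the log2 MAS5 scale, with 1 point per rat, a line at each group mean and rat 2 as a black diamond. Ing4, Klf2, Suco, Add1, Pnpla8 and Gpbp1 show no overlap between the groups, whereas 1 lesioned rat lies inside the sham range for Cxcr5 and 1 sham rat inside the lesioned range for Gda.

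Several genes had no overlap without being among those of smallest p, since their differences were narrow. In lesioned rats Fuca2, a lysosomal fucosidase gene, lay higher by 0.16 ± 0.04, Rnf181 by 0.20 ± 0.06, Dnajc11 by 0.25 ± 0.07, Dcaf8 by 0.13 ± 0.05 and Tmem115 by 0.13 ± 0.05. Lower without overlap were Ahcyl1 (-0.13 ± 0.04), which encodes a partner of the IP3 receptor, Arhgap35 (-0.16 ± 0.05), Acbd3 (-0.16 ± 0.05), Wdr70 (-0.17 ± 0.05) and Cep120 (-0.10 ± 0.04). Another probe set of Dcaf8, Rnf181 and Acbd3 had the opposite sign. For Cep120 limma's unadjusted p was 0.0347 with rat 2 and 0.0669 without it. Of probe sets without a single gene symbol, 1391262_at had the smallest p of the whole table (2.4e-05). It is annotated to 2 gene symbols, so its signal cannot be given to one gene. It had 7.24, 7.44 and 7.70 in lesioned rats against 7.71, 8.33 and 8.40 in sham rats, with a difference of -0.71 ± 0.12. It was called when sham rat 34 was left out (adjusted p = 0.0463), and in no other setting tried.

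Some immune transcripts differed by more than 1 between the group means, and that difference came from rat 2. Cd74, which encodes the invariant chain of MHC class II, had 5.20, 6.41 and 12.73 in lesioned rats, against 5.35, 5.84 and 6.29 in sham rats. Rat 2 held the 12.73, and the other 13 rats lay between 5.20 and 6.71. The lesion difference of Cd74 was 1.31 ± 0.85 with rat 2 and 0.38 ± 0.23 without it. RT1-Da, a class II chain, was at 12.50 in rat 2, 90.3-fold above the median of the others, which lay between 5.34 and 6.54. Its difference was 1.02 ± 0.83, and 0.09 ± 0.18 without rat 2. The complement gene C3 was at 11.51 in rat 2 and at most 7.08 elsewhere, and its difference was 1.01 ± 0.66 with rat 2 and 0.31 ± 0.24 without it.

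Further genes that lay furthest above the other 13 rats in rat 2 belong to phagocytes and to the interferon response. The Fc receptor gene Fcgr3a was 20.9-fold above the median of the others, and Lgals3bp, a galectin ligand gene, 18.7-fold. Rac2 and the complement gene C1qc were each 14.8-fold and Ly86 14.7-fold above it. The antiviral GTPase gene Mx1 was at 8.87 in rat 2 and at most 5.24 elsewhere, and Slfn4 at 8.81 and at most 5.29. Mx1 and Slfn4 passed the filter only through rat 2, so no fold is given for them. Without rat 2 the lesion differences of Mx1 (-0.21 ± 0.10), Fcgr3a (-0.08 ± 0.10), Rac2 (-0.06 ± 0.23) and Slfn4 (-0.003498 ± 0.17) lay below 0. Furthest below the median of the others in rat 2 were Elavl1, an RNA-binding protein gene, at 7.00 against 8.76 or more elsewhere, and Igfbp6 at 3.05 against 4.89 or more. The value of Elavl1 is that of 1 probe set, and of its 2 others tested, 1 had the opposite sign of lesion difference. Cdhr4 was at 3.91 against 5.06 or more. Vps13c and Setd1b were low in rat 2 as well, but another rat was lower still.

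The 208 probe sets of rat 2 stand for 154 named genes, of which 15 are in the microglia list and 10 in the list of interferon response and antigen presentation. Of 17 microglial genes tested, 16 had their highest signal of the 14 rats in rat 2, and of 15 interferon and antigen genes all did. The share of all probe sets with their highest signal in rat 2 was not counted. The microglial score, the mean of the list's members after centring each on the 14 rats, was 2.17 in rat 2. In the other lesioned rats it ran from -0.307 to -0.0332, and in sham rats from -0.32 to 0.0549. With rat 2, 16 of 17 microglial genes lay higher in lesioned rats with a median difference of 0.377, and without it 8 of 17 did with a median of -0.00543. In both cases 0 had unadjusted p under 0.05. Itgam and Trem2 of the microglial list and Mx1 of the interferon list were tested only because rat 2 lifted their mean above 5. The interferon list had 15 of 15 higher with a median of 0.241, and 8 of 15 with a median of 0.00365 without rat 2. Over all probe sets tested, 50.6% were higher with a median of 0.00151, and 51.7% with 0.00398 without rat 2. Aif1, the microglial marker also known as Iba1, had 7.34, 7.80 and 10.80 in lesioned rats against 7.45, 7.55 and 8.06 in sham rats. Its difference was 0.51 ± 0.40 with rat 2 and 0.07 ± 0.11 without it. Of other microglial genes, Tyrobp differed by 0.58 ± 0.45 with rat 2 and 0.10 ± 0.14 without it, Laptm5 by 0.43 ± 0.27 and 0.17 ± 0.15, and Trem2 by 0.48 ± 0.26 and 0.24 ± 0.16. Of interferon genes, Mx2 differed by 0.33 ± 0.19 with rat 2 and 0.20 ± 0.17 without it, and Stat2 by 0.24 ± 0.16 and 0.11 ± 0.12. Of the 12 blood cell markers listed, 2 were tested. The pan-leukocyte gene Ptprc was at 8.26 in rat 2 and at most 5.84 elsewhere, whereas the haemoglobin gene Hbb was at 9.75 in rat 2, inside the range of the others (9.64 to 10.68). The part of blood cells in the immune values of rat 2 was not otherwise tested.

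**Figure D2:**
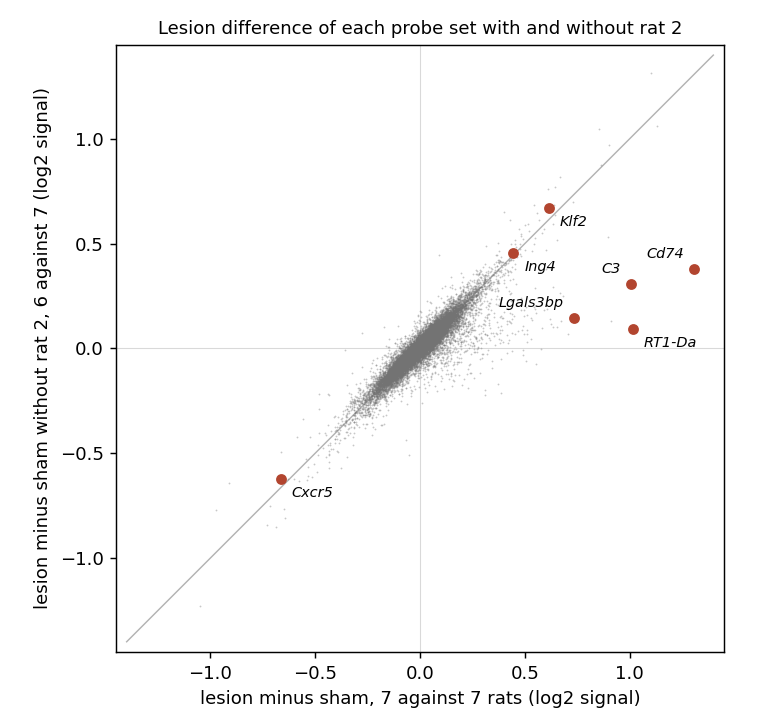
Lesion difference (log2 signal) of each of 18599 probe sets with all rats (horizontal) and without rat 2 (vertical), where the grey line marks equal values. Most points follow the line (89.2% keep their sign), Ing4, Klf2 and Cxcr5 lie on it, and Cd74, RT1-Da, C3 and Lgals3bp lie far below it.

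Genes of MHC class II, which present antigen on microglia and other phagocytes, were looked at more closely in rat 2 after their values were seen. They have 12 probe sets for 7 genes, and rat 2 was the highest of the 14 rats in 10 of them, although only 4 passed the filter on low signals. The probe set with the highest signal in rat 2 is given first for each gene. RT1-Ba was at 11.96 in rat 2 and at most 5.48 in the others, RT1-Bb at 10.91 and at most 4.77, and RT1-Db1 at 11.15 and at most 4.91. Other RT1-Ba probe sets had rat 2 at 5.06, 4.88 and 3.63, the last with others up to 4.84. The other of RT1-Bb had rat 2 at 0.74, under the others' median of 2.31, and that of RT1-Db1 at 10.03. Promoters of these 3 genes and RT1-Da are shown because these neighbouring genes each had a probe set that was high in the same animal. Class II promoters are known for an inverted CCAAT element, the Y box, bound by NF-Y. The motif CTGATTGG, searched on both strands from 250 bases before to 50 after the annotated start, stands in capitals. All 4 of these chains hold it once, 46 to 83 bases before the start, as do 3.55% of all 27457 promoters. It was found in 4 of the 6 class II genes that have a promoter in RefSeq's set. Sequences and positions are from RefSeq (GRCr8), written 5′ to 3′ on the strand of the gene. They are RT1-Da at chr20:4515165-4515464 (plus strand), RT1-Ba at chr20:4576807-4577106 (plus), RT1-Db1 at chr20:4560113-4560412 (minus) and RT1-Bb at chr20:4604069-4604368 (minus).
RT1-Da: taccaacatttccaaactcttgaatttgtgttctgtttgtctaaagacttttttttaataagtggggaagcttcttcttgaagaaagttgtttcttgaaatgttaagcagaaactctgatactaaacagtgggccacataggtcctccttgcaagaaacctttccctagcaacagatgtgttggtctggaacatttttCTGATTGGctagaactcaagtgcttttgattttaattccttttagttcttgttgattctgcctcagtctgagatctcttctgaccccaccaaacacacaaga
RT1-Ba: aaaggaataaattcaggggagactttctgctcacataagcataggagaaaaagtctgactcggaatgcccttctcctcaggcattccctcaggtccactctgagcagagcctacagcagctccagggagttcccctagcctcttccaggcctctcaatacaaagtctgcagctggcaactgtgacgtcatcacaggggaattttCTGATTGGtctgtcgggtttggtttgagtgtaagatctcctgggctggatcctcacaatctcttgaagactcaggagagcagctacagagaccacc
RT1-Db1: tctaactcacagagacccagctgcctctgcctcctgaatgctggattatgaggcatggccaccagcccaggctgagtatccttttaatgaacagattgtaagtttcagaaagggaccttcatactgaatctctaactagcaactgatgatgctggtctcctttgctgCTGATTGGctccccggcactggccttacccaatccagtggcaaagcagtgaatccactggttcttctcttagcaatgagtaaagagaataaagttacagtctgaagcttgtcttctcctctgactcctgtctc
RT1-Bb: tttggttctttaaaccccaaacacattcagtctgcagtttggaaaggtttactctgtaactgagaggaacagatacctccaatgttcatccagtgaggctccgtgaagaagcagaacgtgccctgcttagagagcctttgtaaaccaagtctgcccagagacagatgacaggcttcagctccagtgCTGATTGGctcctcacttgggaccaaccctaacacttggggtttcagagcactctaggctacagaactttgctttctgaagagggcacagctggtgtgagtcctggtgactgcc

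Interferon-stimulated genes often carry an element made of GAAA, any 2 bases and GAAA again. Among the 15 tested members of the interferon list, 11 had a promoter in the table and 4 of these held the motif on either strand, as did 3.77% of all promoters. Gbp2, a guanylate-binding protein gene at chr2:234005477-234005776 (plus strand), and Psmb8, an immunoproteasome subunit gene at chr20:4656982-4657281 (minus strand), are shown with the match in capitals, here on the reverse strand. Gbp2 was at 8.55 in rat 2 and at most 5.69 in the others, and Psmb8 at 8.35 and at most 6.07. Without rat 2 the lesion differences of Gbp2 and Psmb8 were 0.03 ± 0.12 and 0.11 ± 0.13. No promoter shown holds both motifs, and a match is a description of letters, not of binding.
Gbp2: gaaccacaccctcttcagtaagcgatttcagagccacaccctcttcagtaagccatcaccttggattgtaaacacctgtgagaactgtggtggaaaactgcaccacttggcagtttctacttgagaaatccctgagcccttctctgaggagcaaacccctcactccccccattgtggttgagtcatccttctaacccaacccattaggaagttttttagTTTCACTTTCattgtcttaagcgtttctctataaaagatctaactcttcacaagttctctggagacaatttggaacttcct
Psmb8: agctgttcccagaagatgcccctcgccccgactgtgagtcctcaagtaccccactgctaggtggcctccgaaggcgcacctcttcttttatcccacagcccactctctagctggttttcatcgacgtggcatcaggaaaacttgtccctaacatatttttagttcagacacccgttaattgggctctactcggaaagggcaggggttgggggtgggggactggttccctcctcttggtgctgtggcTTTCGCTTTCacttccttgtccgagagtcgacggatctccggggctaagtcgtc

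**Figure D3:**
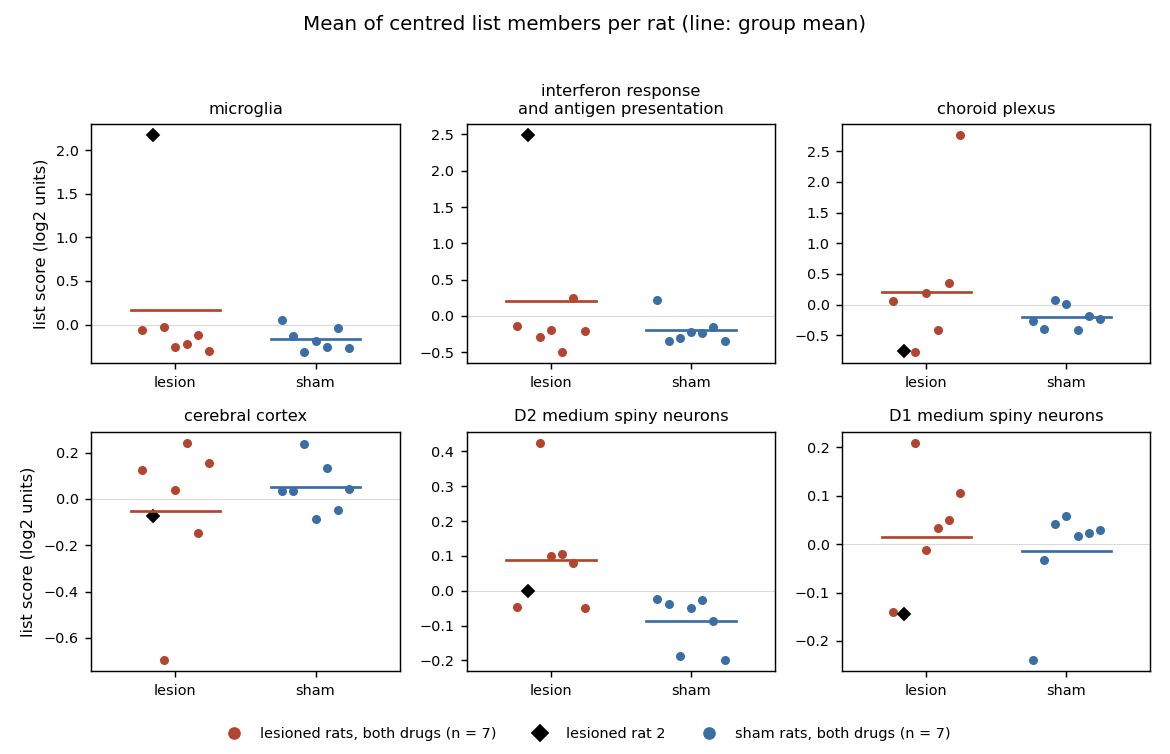
Score of 6 gene lists in each rat (mean of members centred over the 14 rats, log2 units), lesioned rats left and sham rats right, with lines at group means and rat 2 as a black diamond. Rat 2 reaches 2.17 for microglia and 2.49 for interferon and antigen genes, rat 7 reaches 2.76 for choroid plexus, and rat 3 is the lowest for cortex (-0.697) and the highest for D2 neurons (0.424).

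Markers of D2 medium spiny neurons lay higher in lesioned rats in 5 of 5 members tested, with a median of 0.153, and 1 had unadjusted p under 0.05. Drd2, the D2 receptor gene, had 9.63, 9.76 and 10.22 in lesioned rats and 9.34, 9.58 and 9.75 in sham rats. Rat 3 was the highest, the ranges overlapped, and all 7 lesioned rats lay above the sham mean. The difference of Drd2 was 0.25 ± 0.09 (limma's unadjusted p = 0.0186, adjusted p = 0.921), and 0.23 ± 0.10 without rat 2. Penk, the enkephalin precursor, had 12.00, 12.31 and 12.47 against 12.02, 12.13 and 12.32 in sham rats, a difference of 0.15 ± 0.08. Gpr6, an orphan receptor gene of these neurons, had 7.86, 8.40 and 8.91 against 7.95, 8.16 and 8.30 in sham rats. Rat 2 was its lowest lesioned rat, and the difference of 0.22 ± 0.12 became 0.31 ± 0.10 without rat 2 (unadjusted p of limma 0.00882). Adora2a, the adenosine receptor gene, differed by 0.15 ± 0.09 and Ptprm by 0.10 ± 0.07.

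Rat 3 held the highest signal of the 14 rats for 4 of these 5 D2 markers. Without rat 3 all 5 were still higher, with a median of 0.127, and Drd2 differed by 0.18. Rat 3 also had the lowest cortical score, with the lowest signal of all rats in 11 of 14 cortical markers. The share of all probe sets with their highest or lowest signal in rat 3 was not counted, here or for the lists below. Cortical scores ran from -0.697 to 0.241 in lesioned rats and from -0.0886 to 0.239 in sham rats, and with the score as a covariate Drd2 differed by 0.18. The part of cortical tissue in the D2 values was not otherwise tested.

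Markers of D1 medium spiny neurons showed no common direction, with 5 of 9 higher and a median of 0.00681, and 3 of 9 higher with a median of -0.0225 without rat 3. Drd1 had 10.53, 10.79 and 11.15 in lesioned rats and 10.47, 10.76 and 10.87 in sham rats, a difference of 0.04 ± 0.09 that became -0.02 without rat 3 and -0.01 without sham rat 29. The 1 other probe set of Drd1 had the opposite sign. Pdyn, the dynorphin precursor, had 9.54, 9.74 and 10.15 against 9.73, 10.04 and 10.22 in sham rats. Its difference of -0.21 ± 0.10 rested on 5 of 7 lesioned rats below the sham mean and was -0.17 ± 0.10 without rat 2. Tac1, the substance P precursor, differed by -0.12 ± 0.13, and by -0.21 without sham rat 29, at 9.74 its lowest rat. Chrm4, the M4 muscarinic receptor gene, was the 1 D1 marker with unadjusted p under 0.05, at 4.81, 5.27 and 5.55 against 4.70, 4.95 and 5.17 in sham rats (0.27 ± 0.10). Isl1, a transcription factor of D1 neurons, differed by 0.22 ± 0.12.

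Genes of striatal dopamine and cAMP signalling lay higher in 15 of 19, with a median of 0.0535. Rat 3 was the highest of all rats in 14 of the 19, and without it 9 of 19 lay higher with a median of -0.0081. Adcy5, the main striatal adenylyl cyclase, had unadjusted p under 0.05 (0.17 ± 0.07, and 0.16 ± 0.08 without rat 2). Ppp1r1b, which encodes DARPP-32, differed by 0.03 ± 0.09, the phosphodiesterase gene Pde2a by 0.11 ± 0.06 and the phosphatase inhibitor gene Arpp19 by 0.12 ± 0.09. Of genes linked to L-dopa-induced dyskinesia, 6 of 9 lay higher with a median of 0.0549, and 0 had unadjusted p under 0.05.

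Immediate early genes, which neurons switch on with activity, lay higher in 12 of 17, with a median of 0.0411. Without rat 2, 9 of 17 lay higher with a median of 0.0266. The 2 with unadjusted p under 0.05, Ier2 and Egr4, were lower, and without rat 2 they were Ier2, lower, and Klf4, higher (0.24, unadjusted p of limma 0.0239). Ier2 had 5.41, 5.61 and 5.86 in lesioned rats and 5.69, 5.85 and 6.29 in sham rats, with all 7 lesioned rats below the sham mean. Its difference was -0.30 ± 0.09, and the same without rat 2 (-0.30 ± 0.10). Egr4 differed by -0.19 ± 0.08 (-0.17 ± 0.08 without rat 2). Fos had 7.03, 7.95 and 8.47 against 6.69, 7.34 and 8.38 in sham rats, a wide spread in both groups (0.37 ± 0.30). Nr4a1, an orphan nuclear receptor, differed by 0.26 ± 0.13 with all 7 lesioned rats above the sham mean.

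Neuropeptide and opioid receptor genes lay lower in 9 of 13, with a median of -0.118. Their score in rat 3 was -0.486, the lowest of the 14 rats, and without rat 3 the median was -0.0987. Vip, a peptide of cortical and striatal interneurons, had 5.20, 7.18 and 7.59 against 6.88, 7.41 and 7.83 in sham rats (-0.54 ± 0.30), and without rat 3, the low rat, it differed by -0.26. Nts, the neurotensin precursor, differed by 0.32 ± 0.16 and Npy by -0.13 ± 0.09. Striatal interneuron markers had 3 of 7 higher with a median of -0.102, and 0.00216 without rat 3. The cholinergic marker Chat differed by 0.17 ± 0.18, and by 0.01 without sham rat 31, which stood at 5.11.

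**Figure D4:**
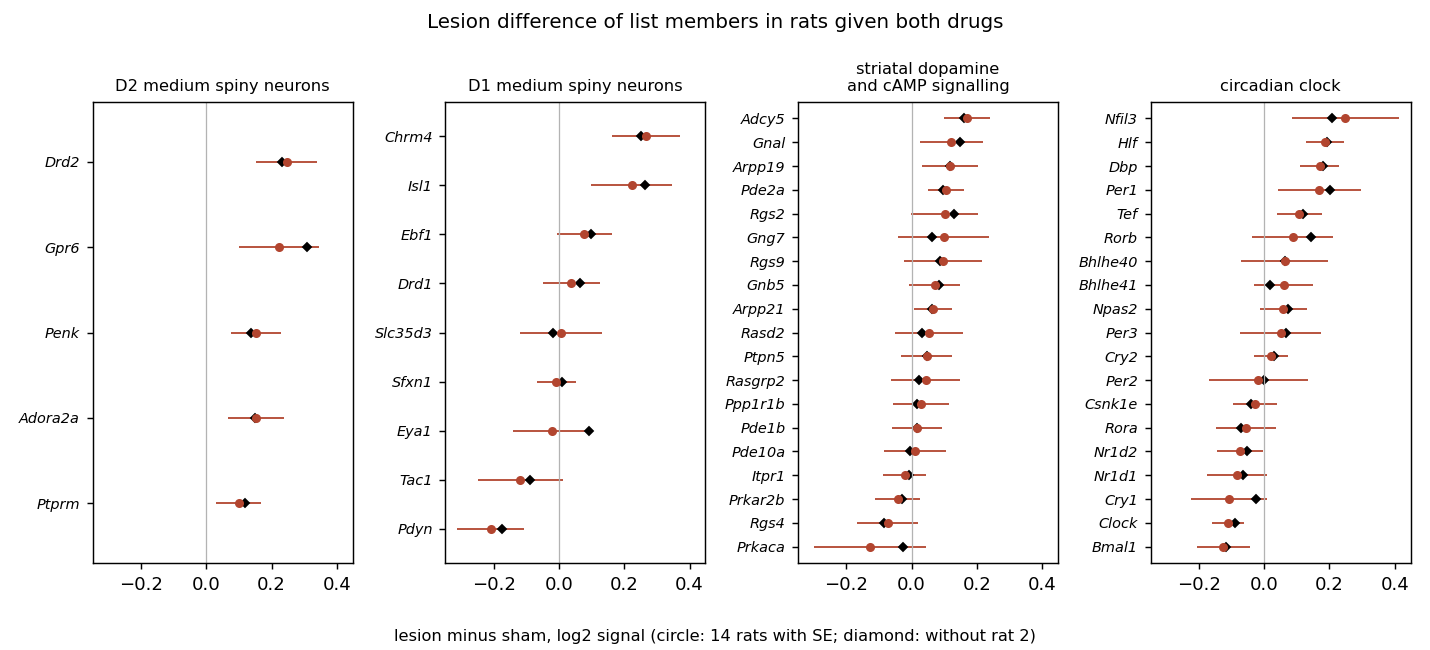
Lesion difference (log2 signal, lesion minus sham) of each tested member of 4 lists, with SE bars for the 14 rats and black diamonds without rat 2. All 5 D2 markers lie above 0, D1 markers run from -0.209 (Pdyn) to 0.267 (Chrm4), and Hlf and Dbp lie above 0 while Clock lies below it.

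Transcripts of dopamine neurons are hardly made in the striatum itself, since the cell bodies lie in the midbrain. Th, the tyrosine hydroxylase gene, was under the filter, with 3.32, 3.67 and 4.38 in lesioned rats and 3.74, 4.46 and 5.01 in sham rats. Slc6a3, the dopamine transporter gene, Slc18a2, the vesicular monoamine transporter gene, Drd3 and Fosb were under the filter as well. The transcripts that define dopamine terminals were thus too dim here for a test. Of the 6 other genes of the dopamine terminal list that were tested, 6 lay lower, with a median of -0.0379 and none at unadjusted p under 0.05. Without rat 2, 5 of 6 lay lower. Calb1 among them was bright, at 9.68 to 10.41 in lesioned and 9.71 to 10.38 in sham rats. How far these 6 genes report on terminals was not tested. Sncg had the largest difference (-0.26 ± 0.29), and it was 0.03 without sham rat 35, which stood at 7.68 against at most 5.92 in the other sham rats. Aldh1a1 differed by -0.13 ± 0.15, and Calb1 by -0.04 ± 0.13 and by 0.01 ± 0.12 without rat 2. Genes of axon and synapse injury and regrowth had 4 of 11 higher and a median of -0.00854, and 7 of 11 with 0.0168 without rat 2. Among them were Ecel1 (0.41 ± 0.22), an endopeptidase gene of injured neurons, with rat 5 low at 4.43, and Ntrk2 (-0.10 ± 0.10), the BDNF receptor gene. Of the 4 other probe sets of Ntrk2, 3 had the opposite sign and 1 had unadjusted p under 0.05. Gadd45b differed by 0.07 ± 0.08.

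Glutamate receptor and postsynaptic genes were split, with 14 of 27 higher and a median of 0.00393. Grin2a, an NMDA receptor subunit, had 7.64, 7.82 and 7.90 in lesioned rats and 7.53, 7.60 and 7.78 in sham rats. All 7 lesioned rats lay above the sham mean, and sham rat 34 was the high sham rat. Its difference was 0.16 ± 0.06 (unadjusted p of limma 0.0147), and 0.14 ± 0.06 without rat 2. Grin2b differed by 0.14 ± 0.09 and Grik2 by -0.09 ± 0.08. Of GABA genes, 6 of 14 lay higher with a median of -0.0333. Gabrg1, a GABA-A receptor subunit, had 6.00, 6.43 and 6.65 against 6.27, 6.69 and 7.08 in sham rats (-0.35 ± 0.12, and -0.29 ± 0.12 without rat 2), with all 7 lesioned rats below the sham mean. Gabra5 differed by -0.16 ± 0.10, and Gad1, which makes GABA, by 0.12 ± 0.07.

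Clock genes were split too, with 11 of 19 higher and a median of 0.0504. Those with unadjusted p under 0.05 were Hlf and Dbp, which encode PAR bZIP factors, outputs of the clock, and Clock itself. Hlf had 10.28, 10.34 and 10.48 in lesioned rats and 10.04, 10.25 and 10.27 in sham rats, without overlap. Dbp had 9.20, 9.31 and 9.41 against 8.96, 9.17 and 9.24 in sham rats, with all 7 lesioned rats above the sham mean. The differences were 0.19 ± 0.06 for Hlf (unadjusted p of limma 0.006) and 0.17 ± 0.06 for Dbp (0.0114), and 0.19 ± 0.06 and 0.18 ± 0.06 without rat 2. Clock, the core activator, had 7.84, 7.97 and 8.05 against 8.03, 8.08 and 8.11 in sham rats (-0.11 ± 0.05, and -0.09 ± 0.05 without rat 2), and its partner Bmal1 differed by -0.12 ± 0.08.

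Glucocorticoid-responsive genes lay higher in 12 of 16, with a median of 0.0488. Nfkbia, the inhibitor of NF-kappa B, had 6.71, 7.01 and 7.35 against 6.27, 6.74 and 7.06 in sham rats. It differed by 0.32 ± 0.12 (unadjusted p of limma 0.0193), and by 0.37 ± 0.12 without rat 2, which was its lowest lesioned rat. Sgk1, a kinase gene of the same response, differed by 0.27 ± 0.15, and by 0.37 ± 0.14 without rat 2. Sult1a1 differed by 0.31 ± 0.16. Unfolded protein and heat shock genes had 14 of 23 higher and a median of 0.0191, with 10 of 23 and -0.0142 without rat 2, which was the highest rat in 9 of them. Herpud1 differed by 0.16 ± 0.08, Hspa1a by -0.26 ± 0.13 and Dnajc3 by 0.19 ± 0.11. Oxidative phosphorylation subunits had 27 of 42 higher with a median of 0.0127, and Uqcrq of complex III was the 1 with unadjusted p under 0.05 (0.18 ± 0.08). Cox7b differed by 0.09 ± 0.06 and Ndufs3 by 0.10 ± 0.06.

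Other cell types gave small or rat-bound values. Astrocyte genes lay higher in 4 of 14 with a median of -0.0592, and Gfap, the intermediate filament of reactive astrocytes, had 9.31, 9.68 and 10.52 against 9.20, 9.52 and 10.11 in sham rats. The difference of Gfap was 0.12 ± 0.19 with rat 2, its highest rat, and -0.02 ± 0.16 without it. Aldh1l1 and Slc1a3 differed by -0.16 ± 0.10 and -0.15 ± 0.10. Of the 2 other probe sets of Slc1a3, 1 had the opposite sign. Oligodendrocyte genes had 11 of 18 higher with a median of 0.00551, and Ugt8, which makes a myelin lipid, differed by -0.23 ± 0.10, and the myelin gene Cnp by 0.10 ± 0.09. The 1 other probe set of Cnp had the opposite sign. Endothelial and mural genes had 10 of 14 higher with a median of 0.0765, with Pdgfrb at 0.35 ± 0.17, Vwf at 0.23 ± 0.13 and Cspg4 at 0.19 ± 0.12. Their score was highest in sham rat 29 (0.347) and next in lesioned rat 1 (0.283), so its high rats came from both groups.

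Transcripts of choroid plexus and cortex stood apart in single rats. Ttr, the transthyretin gene of choroid plexus, had 5.49, 6.96 and 12.59 in lesioned rats and 5.56, 6.15 and 7.70 in sham rats. The highest value was that of rat 7, and the difference was 1.10 ± 0.84, and 0.24 without rat 7. Folr1 differed by 0.32 ± 0.31 with rat 7 at 7.26, and by 0.01 without rat 7, and Aqp1 by -0.21 ± 0.22. The median of the 3 choroid plexus genes tested was 0.315, and 0.00917 without rat 7. Cortical markers had 5 of 14 higher with a median of -0.0629, and 8 of 14 with 0.0272 without rat 3. Of these Sv2b differed by -0.20 ± 0.09, Bhlhe22 by -0.45 ± 0.25 and Stx1a by -0.17 ± 0.11. Without rat 3 the differences of Bhlhe22 and Stx1a were -0.24 and -0.10. Leptomeningeal markers had 5 of 9 higher, with a median of 0.0169. Among them Crabp2, a retinoic acid-binding protein gene, had 5.62, 6.00 and 6.41 against 5.29, 5.61 and 5.88 in sham rats, with all 7 lesioned rats above the sham mean (0.39 ± 0.12). The matrix genes Lum and Col3a1 differed by -0.12 ± 0.11 and 0.11 ± 0.13. Markers of septum, thalamus and pallidum had 5 of 7 higher, with Prkcd at 0.37 ± 0.16 and 0.25 ± 0.13 without rat 2, Nkx2-1 at 0.16 ± 0.09 and Slc17a6 at -0.24 ± 0.16. Ependymal markers had 3 of 4 higher with a median of 0.0539. Of these Tekt1 differed by 0.15 ± 0.17, Rarres2 by 0.04 ± 0.10 and Tmem212 by -0.10 ± 0.21, with Tmem212 at 0.04 without rat 2. Hbb of red blood cells differed by -0.09 ± 0.16.

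The spread between rats was alike in both groups apart from rat 2. The median SD over probe sets was 0.169 in lesioned rats, 0.16 in them without rat 2, and 0.166 in sham rats. An SD above 1 was reached by 73 probe sets in lesioned rats and by 26 without rat 2, against 20 in sham rats. Genes of wide spread in both groups were Ramac, with an SD of 1.497 in lesioned and 1.63 in sham rats, and Pxmp4, with 1.11 and 1.24.

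The lesion comparison in rats given both drugs was also set against the same comparison in rats given saline in place of both drugs (7 lesioned and 7 sham). The test was of the difference between the lesion differences, over all 56 arrays, and the groups share no rats. In undrugged rats alone the lesion comparison gave 200 calls (1.08%). There all lesioned arrays lie in arrays 1 to 37 and all sham arrays in arrays 38 to 56. Lesion and array set therefore cannot be told apart in those 200 calls. For the difference limma called 25 probe sets (0.134%), 4 in which the lesion difference was higher (0.0215%) and 21 in which it was lower (0.113%) with both drugs. In 20 of them the size was larger without drugs. The undrugged sham arrays are all numbered above 37, so drug treatment and array number cannot be told apart here. For 11 of the 25 the arrays 1 to 37 did not overlap with arrays 38 to 56. The share of all tested probe sets without such overlap was not counted. With the array set as a block limma called 0 (smallest adjusted p = 0.531, with 882 at unadjusted p under 0.05). The block rests on the 1 group with arrays in both sets, sham rats given L-dopa alone, of which 2 lie in arrays 1 to 37. SEs were larger with it, as for Mphosph8 (0.11 without and 0.15 with the block). Whether the calls were lost through array set or through precision was not tested. Leaving out single rats gave between 4 calls (without sham rat 34) and 52 calls (without sham rat 29), and 9 without rat 2.

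Mphosph8, a gene of heterochromatin silencing, had the smallest p, with a difference of differences of -0.68 ± 0.11 (adjusted p of limma 0.0033). It averaged 6.12 in lesioned and 6.05 in sham rats given both drugs, and 6.10 in lesioned and 5.35 in sham rats given none. The undrugged sham rats were thus the low group, and the lesion difference was 0.07 with both drugs and 0.74 without. Camk2n1, an inhibitor of CaM kinase II, and both probe sets of the muscle myosin gene Myh1 had the same pattern. Their lesion differences were 0.00, 0.05 and 0.07 with both drugs, against 0.86, 1.06 and 1.19 without. All 4 probe sets were among the 11 that separate the array sets. With the array block the difference of differences was -0.23 ± 0.15 for Mphosph8 and -0.09 ± 0.19 for Camk2n1.

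Pitpnm1, a phosphatidylinositol transfer protein gene, and Cpeb4, a regulator of translation through poly(A) tails, had another pattern. Pitpnm1 had 9.36, 9.61 and 9.69 in lesioned and 9.07, 9.25 and 9.52 in sham rats given both drugs, with all 7 lesioned rats above the sham mean. The lesion difference was 0.30 ± 0.07 with both drugs and -0.25 ± 0.07 without, a difference of 0.55 ± 0.11 (adjusted p of limma 0.0186), and 0.31 ± 0.15 with the array block. Cpeb4 had -0.16 ± 0.06 and 0.25 ± 0.06, a difference of -0.41 ± 0.08 (adjusted p 0.0191), and -0.33 ± 0.12 with the block. Neither separated the array sets, and neither was called with the block. Of the genes of smallest p within the rats given both drugs, Cops2 and Pnpla8 were among the 25 as well. Their lesion differences without drugs were 0.18 ± 0.06 and 0.16 ± 0.06, opposite in sign to those with both drugs. The test behind the 25 calls holds the lesion difference with both drugs, from the same rats, so a small p there favours such calls. The calls and the opposite signs are therefore no separate evidence for Cops2 and Pnpla8.

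**Figure D5:**
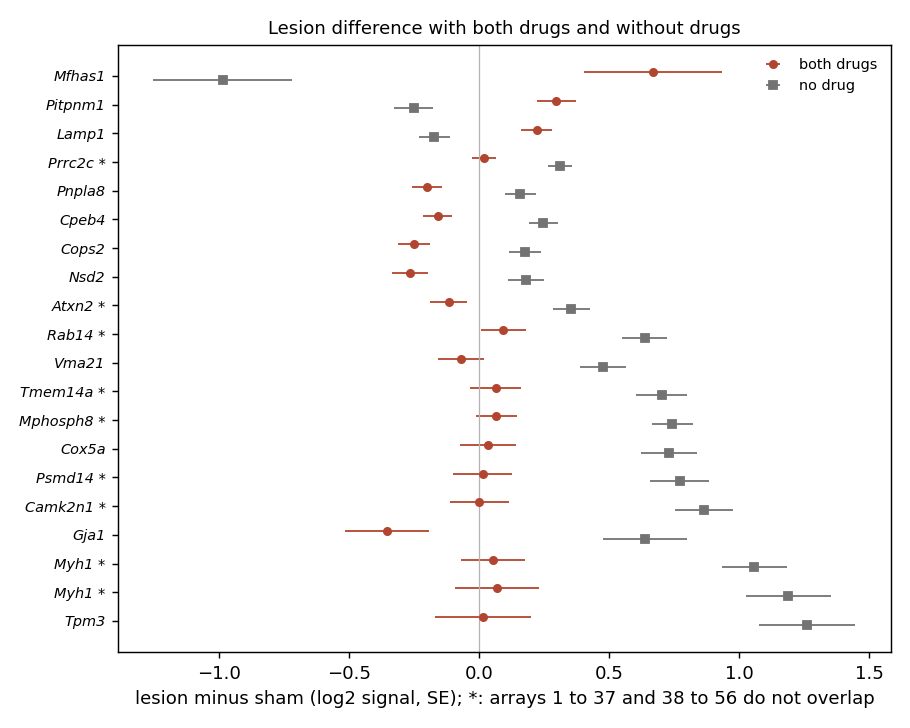
Lesion minus sham (log2 signal, with SE) in rats given both drugs (red circles) and in rats given no drug (grey squares) for the 20 called probe sets with 1 gene symbol. Genes marked with a star have arrays 1 to 37 and 38 to 56 without overlap, and these 9 lie between -0.12 and 0.09 with both drugs and between 0.31 and 1.19 without. The share of all tested probe sets without such overlap was not counted.

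Within arrays 1 to 37 the lesion comparison under L-dopa could be set against itself without pramipexole, although only 2 sham rats given L-dopa alone lie there. limma called 0 of 18599 probe sets (smallest adjusted p = 0.637), and 623 (3.35%) had unadjusted p under 0.05. The 5 genes of smallest p were Glt8d2 (-1.20 ± 0.30), Asl (0.89 ± 0.24), Nadk (0.95 ± 0.25), Vezf1 (0.46 ± 0.12) and Sema5a (0.83 ± 0.23), each as the difference between the lesion differences. Nadk, the kinase gene that makes NADP, averaged 6.18 in lesioned and 5.73 in sham rats given both drugs, and 5.87 in lesioned and 6.37 in the 2 sham rats given L-dopa alone. Within the rats given both drugs Nadk differed by 0.45 ± 0.12 with all 7 lesioned rats above the sham mean, and by 0.40 ± 0.12 without rat 2. Nadk was named for its small p in a contrast that holds this same difference, so these values are no separate evidence.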

How the data were processed

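Total RNA of the dorsal striatum was extracted rat by rat and 100 ng labelled for 1 Rat230_2 array each, per the labels' protocols. Deposited values are log2 signals per probe set. They were made with MAS5 per the submitters' processing notes, whose version and scaling target are not given in the sources used here. The trimmed mean (2% at each end) of the unlogged signals was 150.042 to 150.046 on every array, which removes differences in total signal between rats. The number of arrays limits the precision.

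Of 31099 probe sets, 57 controls were left out, and 18599 (59.9%) with a mean above 5 over the 14 arrays were tested: 13595 with 1 gene symbol, 310 with several and 4694 with none. MAS5 detection calls were not used. Symbols came from the platform annotation, and 99.7% matched a RefSeq gene. limma 3.58.1 in R 4.3.3 (lmFit and eBayes, checked on simulated data) compared lesioned and sham rats with Benjamini-Hochberg adjustment at 0.05. Differences from undrugged rats were fitted over 56 arrays with 8 group means, and the pramipexole contrast over arrays 1 to 37 with 6. Alternatives were other filters, quantile normalization, 16 added before log2, array weights, a trended robust prior, tissue and RNA-quality covariates, and leaving out rats.

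Genes were named by rule: the 12 of smallest p per direction, those without overlap, the 3 of smallest p in each of 26 lists, fixed striatal genes, the extremes of rat 2, the largest spreads and the 5 of smallest p per contrast. From the spreads, those of 2 genes are given, and 1 gene of the rule is not reported here. Adora2a, Ptprm, Ppp1r1b, Fos, Klf4, Bmal1, Itgam, Gbp2, Psmb8 and class II genes other than RT1-Da are outside the rule or were picked from it after their values were seen. The members and lists were chosen with earlier results of these data known. P-values of limma set each difference against the spread between rats within groups. That spread was estimated over all groups of the fit and moderated by limma across probe sets.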

Additional observations from a re-analysis of the deposited data

Results flagged for a closer look

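Single rats stood far from the other 6 of their group in 57 of 324 group values of genes, scores and array correlations, by Dixon's ratio of gap to range. Chance gives about 1 in 20 such groups, but 18 of the genes had been named for their extremes in rat 2 or their spread, so that they stand apart follows from the choice. Without those genes there were 41 of 288 group values. The other genes and scores share rats and are not independent of each other. Values are log2 signals unless named otherwise, and no explanation was weighed.

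Rat 2 accounted for 25 of the 57, 13 of them genes named for rat 2 or their spread and 12 others. It was high for Cd74 (12.73), RT1-Da (12.50), C3 (11.51), Aif1 (10.80), C1qc (10.50), Fcgr3a (10.18), Tyrobp (9.72), Ly86 (9.59), Lgals3bp (9.37) and Rac2 (9.34). It was also high for Mx1 (8.87), Slfn4 (8.81), Laptm5 (8.49), Ptprc (8.26) and Trem2 (6.80). Its scores were 2.49 for interferon and antigen genes, 2.17 for microglia, 1.18 for blood cells and -0.439 for ependyma. The blood cell score is the mean of 2 genes, Hbb and Ptprc, and Ptprc is also in the microglia list. Rat 2 was low for Arhgap35 (8.01), Elavl1 (7.00), Tmem212 (5.49), Cdhr4 (3.91) and Igfbp6 (3.05), and its median array correlation was 0.963.

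Rat 3 was high for Drd2 (10.22) and for the scores of D2 neurons (0.424) and dopamine and cAMP signalling (0.324). It was low for Vip (5.20) and for the cortical score (-0.697). Rat 7 was high for Ttr (12.59), Folr1 (7.26) and the choroid plexus score (2.76). Rat 1 was high for Dcaf8 (8.35) and Hbb (10.68) and low for Riox2 (5.74) and Ramac (3.81). Rat 4 was high for Herpud1 (8.39) and low for Ahcyl1 (10.60), and rat 5 was low for Ecel1 (4.43).

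Among sham rats, rat 29 was low for Gda (10.11), Drd1 (10.47), Tac1 (9.74), the D1 score (-0.24) and its median array correlation (0.976). It was high for Aif1 (8.06) and for the scores of the clock (0.101), interferon and antigen genes (0.219) and endothelial and mural cells (0.347). Sham rat 35 was low for Gse1 (6.42), Grik2 (8.31) and Vps13c (5.54) and high for Sncg (7.68). Sham rats 34, 30, 31 and 32 stood apart for Grin2a (7.78, high), Vwf (6.97, high), Chat (5.11, low) and Prkcd (6.06, low).

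The lesion difference in rats given both drugs differed from that in undrugged rats in limma's test for Mphosph8 (-0.68), Myh1 (-1.01 and -1.12), Camk2n1 (-0.86), Pitpnm1 (0.55) and Cpeb4 (-0.41). None of these was called with the array set as a block, a fit in which their SEs were larger.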

How the results depend on the processing

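No paired analysis was possible because the lesioned and sham rats share no rat number. For lesioned against sham rats limma called 0 probe sets, 1 when the spread came from arrays 1 to 37 (Ing4) and 0 to 1 when single rats were left out (the 1 without sham rat 34). Of 134 named probe sets, 114 kept the sign of their difference in every alternative run, and 1, Ing4, passed the threshold in one. The cause of the changes of sign was not tested.

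The difference from undrugged rats gave 25 calls, 5 with no filter and 0 with the array block. Leaving out single rats gave 4 to 52. Of lesioned rats given both drugs, leaving out rats 1 and 2 gave 9 each, rat 3 gave 16, rat 4 gave 13 and rat 5 gave 11. Of undrugged lesioned rats, rat 25 gave 14, rat 27 gave 11, and rats 26 and 28 gave 9 each. Of sham rats given both drugs, rat 29 gave 52, rat 30 gave 7, rat 33 gave 13, rat 34 gave 4 and rat 35 gave 9. Of undrugged sham rats, rats 50, 51 and 55 gave 15 each, rat 53 gave 7 and rat 56 gave 11. The pramipexole contrast kept 0 calls in every alternative.

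Changes of sign were as follows. Camk2n1 was -0.006524 after quantile normalization and -0.003998 with the cortical covariate, which gave Drd1 -0.0006248. Tmem212 was 0.009216 with array weights. With the RNA-quality covariate and rat 2 left out, the values were Calb1 0.03801, Ptprc -0.09705, Tmem212 0.06315, Gfap -0.02102, Fcgr3a -0.08939, Mx1 -0.2255, Slfn4 -0.02115, Rac2 -0.07919, Elavl1 0.05452, Igfbp6 0.01684 and Cdhr4 0.1197. Without rats 2, 3, 7 and 29, chosen after seeing the data, they were Arpp19 -0.01047, Aldh1a1 0.1187, Ntrk2 0.0459, Hbb 0.02817, Tmem212 0.124, Col3a1 -0.03138, Drd1 -0.08192, Fcgr3a -0.02268, Mx1 -0.1955, Igfbp6 0.05183 and Cdhr4 0.09402.

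Leaving out single rats gave ranges that crossed 0 for Calb1 (-0.116 to 0.02919), Camk2n1 (-0.0339 to 0.07625), Ptprc (-0.05902 to 0.4468), Tmem212 (-0.1963 to 0.04273), Gfap (-0.01508 to 0.1955), Fcgr3a (-0.07587 to 0.6876) and Mx1 (-0.2115 to 0.5138). They also crossed 0 for Slfn4 (-0.003498 to 0.7751), Rac2 (-0.05844 to 0.7519), Elavl1 (-0.387 to 0.07449), Cdhr4 (-0.3015 to 0.1019), Drd1 (-0.02248 to 0.08064), Pxmp4 (-0.4719 to 0.02964) and Sncg (-0.3532 to 0.03427).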

Other observations

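The remaining named genes whose lesion difference was not the same with both drugs as without drugs, in limma's test over 56 arrays, are given as values. All were read after the calls were seen, and drug treatment and array number cannot be told apart for them. Lamp1, a lysosomal membrane protein gene, averaged 10.71 in lesioned and 10.49 in sham rats given both drugs, and 10.46 in lesioned and 10.64 in sham rats given none. Its difference of differences was 0.40 ± 0.08 (adjusted p of limma 0.0319), and 0.42 ± 0.13 with the array set as a block. Mfhas1 averaged 6.29 in lesioned and 5.62 in sham rats given both drugs, and 5.38 in lesioned and 6.37 in sham rats given none, with a difference of differences of 1.66 ± 0.38 and 2.16 ± 0.56 with the block. Vma21, which encodes an assembly factor of the vacuolar proton pump, had -0.55 ± 0.13 and -0.57 ± 0.19 with the block. Nsd2, a histone methyltransferase gene, had -0.45 ± 0.10 and -0.27 ± 0.14 with the block.

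Gja1, the main astrocytic connexin gene, had -0.99 ± 0.23 on one probe set, and -0.93 ± 0.34 with the block. Atxn2, Psmd14, Tmem14a, Rab14 and Prrc2c were among those whose arrays 1 to 37 did not overlap with arrays 38 to 56. Their lesion differences with both drugs ran from -0.12 (Atxn2) to 0.09 (Rab14). Without drugs they were 0.35 for Atxn2, 0.77 for Psmd14, 0.70 for Tmem14a, 0.64 for Rab14 and 0.31 for Prrc2c. Tpm3 and Cox5a had 1.26 and 0.73 without drugs, against 0.01 and 0.03 with both. Their means over arrays 1 to 37 and 38 to 56 were 6.79 and 5.70 for Tpm3 and 6.78 and 5.90 for Cox5a. With the block the differences of differences were -0.49 ± 0.37 for Tpm3 and 0.06 ± 0.18 for Cox5a, against -1.25 and -0.70 without it. For Atxn2, Psmd14 and Tmem14a they were -0.15 ± 0.14, -0.18 ± 0.22 and 0.05 ± 0.17 with it. For Rab14 and Prrc2c they were -0.03 ± 0.16 and -0.05 ± 0.09. Of the 25 called probe sets, 21 kept their sign with the block.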
